A study of Mus musculus with 12 samples.

Results

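The 10 genes described here are made late in the neutrophil line: *Ngp*, *Camp*, *Ltf*, *Lcn2*, *Chil3*, *Mmp8*, *S100a8*, *S100a9*, *Fcnb* and *Retnlg*. They were taken by name from a list of late neutrophil genes and found, all 10, among the 55335 genes of a count table of RNA-seq of sorted mouse bone marrow hematopoietic stem cells (HSCs). *Ythdc1*Δ/Δ HSCs came from *Ythdc1*fl/fl Mx1-Cre mice and *Ythdc1*+/+ HSCs from *Ythdc1*+/+ Mx1-Cre mice, and both genotypes received 5 injections of pIpC. YTHDC1 is a nuclear protein that reads the m6A mark on RNA, and the comparison asks what its loss does to transcripts in HSCs. Mx1-Cre is an interferon-inducible Cre that also acts outside the blood cells, and pIpC is the double-stranded RNA mimic that switches it on, so Cre and pIpC are shared by the controls. Donors were 8 weeks old on a C57BL/6 background. Their marrow was enriched with CD117 beads and then sorted, with CD11b and Gr1, the usual surface marks of neutrophils, among the lineage antibodies. There were 12 libraries, 2 for each of 6 sample numbers. Summing each pair of libraries gave *Ythdc1*Δ/Δ samples KO176, KO177 and KO209 and *Ythdc1*+/+ samples WT178, WT180 and WT207. Whether a number stands for a single mouse is not stated in the labels, so p-values measure the spread between these samples.

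Neutrophils fill their granules in waves. Promyelocytes make the primary granule proteins, such as myeloperoxidase and the serine proteases, myelocytes then make the secondary granule proteins, and later stages add gelatinase granule and cytosolic proteins. The transcription factor C/EBPε is required for most secondary granule genes, while C/EBPα, GFI1 and PU.1 act earlier. Transcripts of this kind are the most abundant products of maturing marrow neutrophils and are not marks of HSCs.

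The 3 *Ythdc1*Δ/Δ samples held 45939230 to 46937648 counts each, against 42098649 to 48095239 in the 3 *Ythdc1*+/+ samples. The targeted gene *Ythdc1*, counted over all its exons, was at 56.8, 69.6 and 69.6 CPM (counts scaled to a common total by the TMM method) in KO176, KO177 and KO209, against 76.0, 72.6 and 92.6 CPM in WT178, WT180 and WT207. Its log2 fold change was -0.30 (SE 0.13, edgeR adjusted p = 0.521), and as the deleted exons were not counted separately this is no check of the labels. Of 18234 genes tested, 25 passed an adjusted p of 0.05, 16 higher and 9 lower in *Ythdc1*Δ/Δ HSCs.

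The 10 genes lie on 4 chromosomes of the mm10 build, and none shares exonic bases with another gene. *Camp* (ENSMUSG00000038357.10, chr9:109847379-109849617, minus strand), *Ngp* (ENSMUSG00000032484.8, chr9:110419747-110423012, plus strand) and *Ltf* (ENSMUSG00000032496.7, chr9:111019271-111042767, plus strand) are neighbours on chromosome 9, with 570130 bases between *Camp* and *Ngp* and 596259 between *Ngp* and *Ltf*. *Mmp8* (ENSMUSG00000005800.3, chr9:7558456-7568485, plus strand) is on the same chromosome, far from these. *S100a8* (ENSMUSG00000056054.9, chr3:90668978-90670035, plus strand) and *S100a9* (ENSMUSG00000056071.12, chr3:90692632-90695721, minus strand) are 22597 bases apart, and *Chil3* (ENSMUSG00000040809.10, chr3:106147554-106167564, minus strand) is on the same chromosome. The remaining genes are *Lcn2* (ENSMUSG00000026822.14, chr2:32384633-32388252, minus strand), *Fcnb* (ENSMUSG00000026835.15, chr2:28076378-28084885, minus strand) and *Retnlg* (ENSMUSG00000022651.6, chr16:48872621-48874496, plus strand).

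Promoters of 4 of the genes are shown because the comparison of genotypes turns on them: *Ngp*, *Chil3* and *Fcnb* are the genes whose samples did not overlap between genotypes, and *Ltf* is the gene nearest to the shared profile of the 10. Each runs from 250 bases before to 50 bases after the RefSeq start on GRCm38.p6 (the assembly of mm10), 5′ to 3′ along the gene, with capitals on 3 motifs that were searched on both strands: TTNNGCAA (letters of a common C/EBP site), AGGAAGT (an ETS motif of the PU.1 kind) and TATAAA. The windows are chr9:110419558-110419857 (plus strand) for *Ngp*, chr9:111019042-111019341 (plus strand) for *Ltf*, chr3:106167515-106167814 (minus strand) for *Chil3* and chr2:28084829-28085128 (minus strand) for *Fcnb*.
Ngp: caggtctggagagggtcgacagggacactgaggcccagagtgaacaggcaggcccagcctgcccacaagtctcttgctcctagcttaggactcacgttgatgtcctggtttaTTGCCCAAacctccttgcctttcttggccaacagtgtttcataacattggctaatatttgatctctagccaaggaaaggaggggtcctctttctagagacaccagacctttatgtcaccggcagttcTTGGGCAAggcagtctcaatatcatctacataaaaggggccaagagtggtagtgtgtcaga
Ltf: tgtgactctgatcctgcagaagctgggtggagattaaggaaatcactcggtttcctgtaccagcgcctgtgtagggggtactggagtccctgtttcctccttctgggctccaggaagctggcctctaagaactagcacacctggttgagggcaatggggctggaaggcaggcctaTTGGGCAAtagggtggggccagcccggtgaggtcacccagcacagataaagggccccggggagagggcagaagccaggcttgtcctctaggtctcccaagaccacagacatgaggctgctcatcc
Chil3: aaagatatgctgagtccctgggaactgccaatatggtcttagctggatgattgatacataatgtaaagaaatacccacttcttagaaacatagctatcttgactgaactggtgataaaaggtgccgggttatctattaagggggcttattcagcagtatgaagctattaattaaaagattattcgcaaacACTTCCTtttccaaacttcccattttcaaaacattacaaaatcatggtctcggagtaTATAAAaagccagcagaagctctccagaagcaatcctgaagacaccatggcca
Fcnb: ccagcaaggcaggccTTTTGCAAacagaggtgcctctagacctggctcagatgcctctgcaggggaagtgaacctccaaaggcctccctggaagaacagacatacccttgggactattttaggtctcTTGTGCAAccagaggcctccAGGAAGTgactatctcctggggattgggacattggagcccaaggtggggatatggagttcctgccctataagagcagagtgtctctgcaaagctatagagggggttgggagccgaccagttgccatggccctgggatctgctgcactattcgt

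All 10 genes had a promoter in the RefSeq table. The C/EBP letters were in 7 of the 10 promoters, against 10.8% of 32851 promoters of the same length. *Ngp* had them 138 bases before the start on the minus strand and 11 bases before it on the plus strand, and *Fcnb* 235 and 123 bases before it. *Ltf* carried the same 8 letters as the nearer *Ngp* match, 75 bases before its start. *Lcn2*, *S100a9*, *Retnlg* and *Mmp8* each had a single match, at 216, 236, 246 and 19 bases before the start. The ETS letters were in 4 promoters (*Chil3*, *S100a8*, *Fcnb* and *Mmp8*), against 9.35% of all promoters, and TATAAA was in 4 (*Chil3*, *S100a8*, *S100a9* and *Mmp8*), against 13.6%. No 2 matches overlapped, and *Camp* held none of the 3. A match of letters is a description of the window and does not show binding.

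Late neutrophil transcripts were abundant in the sorted HSC samples of both genotypes. Which cells of these bulk samples held them was not tested. On the per-length scale of TPM (counts per base of exon, scaled to a common total), *S100a8* averaged 6971 TPM over the 6 samples and ranked 3rd of the 18234 genes tested. *Ngp* followed at 6010 TPM (6th), *S100a9* at 5556 TPM (8th) and *Camp* at 2944 TPM (20th). *Chil3* (860 TPM), *Ltf* (540 TPM), *Lcn2* (232 TPM), *Retnlg* (186 TPM) and *Fcnb* (175 TPM) were lower, and *Mmp8* was the lowest at 41.7 TPM, 3973rd in rank. The order of neighbours held in all 6 samples but for *Ngp* over *S100a9* (4 of 6), *Lcn2* over *Retnlg* (5 of 6) and *Retnlg* over *Fcnb* (5 of 6), which were not set apart beyond their spread. Counts behind these levels ran between 1021 for *Mmp8* and 170509 for *Ngp* in single samples, so counting error is small beside the spread between samples.

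The mean of each of the 10 genes was higher in *Ythdc1*Δ/Δ HSCs, by 1.15-fold for *S100a9* to 1.59-fold for *Chil3*, and no gene passed the test across all genes. Summed over the 10 genes, the level was 9463, 7891 and 9848 CPM in KO176, KO177 and KO209, against 7916, 5547 and 7908 CPM in WT178, WT180 and WT207. KO177 was just under WT178 and WT207, so the genotypes overlapped. The means were 9067 ± 1037 CPM in the *Ythdc1*Δ/Δ samples, against 7124 ± 1365 CPM in the *Ythdc1*+/+ samples (SD, n = 3 each), a ratio of 1.27, and the 10 genes took 0.770% to 1.06% of the counts of a *Ythdc1*Δ/Δ sample and 0.556% to 0.836% of those of a *Ythdc1*+/+ sample. In bulk samples more cells of a type and more RNA per cell cannot be told apart.

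**Figure D1:**
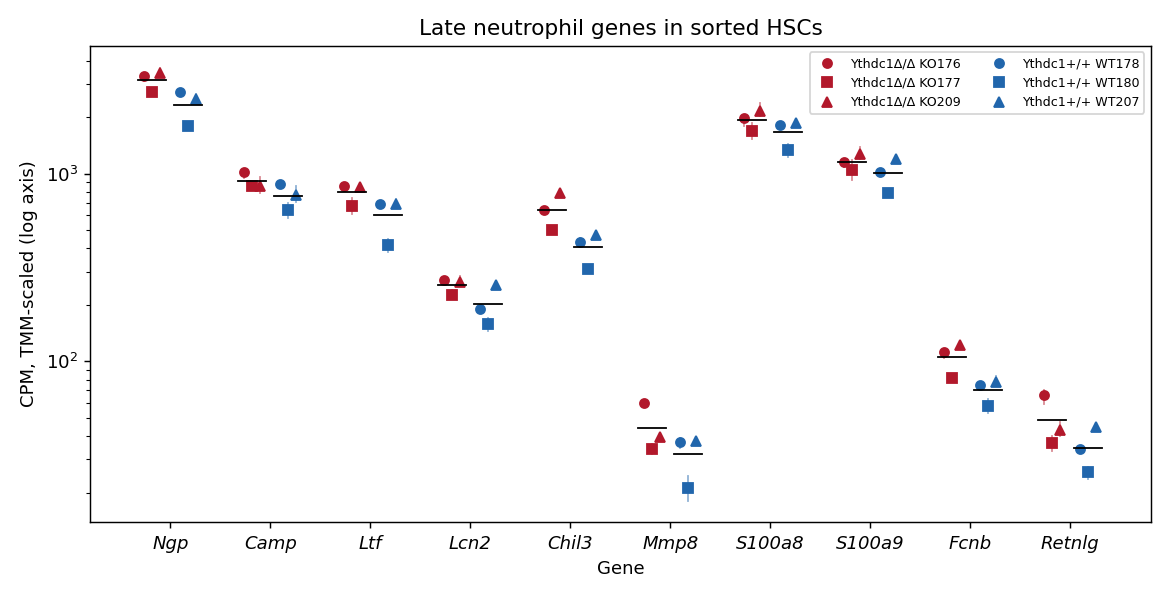
Level of each of the 10 genes in CPM (log axis) in the 3 *Ythdc1*Δ/Δ samples (red, left) and the 3 *Ythdc1*+/+ samples (blue, right). Large symbols are summed samples, thin lines join the 2 libraries of a sample, and black bars are group means; WT180 is the lowest point of all 10 genes.

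*Ngp*, which codes for neutrophilic granule protein, a cystatin-like secondary granule protein described in mice, was at 3307, 2739 and 3445 CPM in KO176, KO177 and KO209, against 2733, 1792 and 2489 CPM in WT178, WT180 and WT207. Every *Ythdc1*Δ/Δ sample lay above every *Ythdc1*+/+ sample, with KO177 and WT178 nearly level. A log2 fold change of 0.44 was fitted (SE 0.18), with an unadjusted edgeR p of 0.038 and an adjusted p of 0.487, and without WT180 it was 0.27.

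*Camp* encodes the cathelicidin precursor of the antimicrobial peptide CRAMP. It was at 1019, 865 and 861 CPM in KO176, KO177 and KO209, against 878, 640 and 774 CPM in WT178, WT180 and WT207. Only KO176 lay above all *Ythdc1*+/+ samples, and the log2 fold change was 0.26 (SE 0.15, adjusted p = 0.625 by edgeR), or 0.14 without WT180.

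*Ltf* encodes lactoferrin, the iron-binding protein by which secondary granules are usually recognised. Its level was 865, 671 and 850 CPM in KO176, KO177 and KO209, against 689, 415 and 694 CPM in WT178, WT180 and WT207. KO177 was below WT178 and WT207. On the log2 scale the change was 0.41 (SE 0.20, edgeR adjusted p = 0.567), or 0.20 without WT180.

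*Lcn2* encodes lipocalin 2, which binds bacterial iron carriers. It was at 271, 226 and 265 CPM in KO176, KO177 and KO209, against 189, 158 and 256 CPM in WT178, WT180 and WT207. Here WT207 stood with the *Ythdc1*Δ/Δ samples and away from the other *Ythdc1*+/+ samples. A log2 fold change of 0.34 was fitted (SE 0.17, edgeR adjusted p = 0.578), which was 0.18 without WT180 and 0.55 without WT207.

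*Chil3* encodes Ym1, a chitinase-like lectin without chitinase activity that maturing mouse neutrophils make in quantity. Its level was 637, 502 and 788 CPM in KO176, KO177 and KO209, against 434, 312 and 469 CPM in WT178, WT180 and WT207. The genotypes did not overlap, and the means were 642 ± 143 CPM in the *Ythdc1*Δ/Δ samples, against 405 ± 82.2 CPM in the *Ythdc1*+/+ samples (SD, n = 3 each). The log2 fold change, 0.67 (SE 0.20), was the highest of the 10, with an edgeR p of 0.00707 and an adjusted p of 0.312. It was 0.49 without KO209 and 0.81 without KO177. *Chil3* has the close paralog *Chil4*, and reads that fit both equally are not assigned by the counting program at its defaults; *Chil4* itself was at 0.202 CPM or less in every sample.

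*Mmp8* encodes neutrophil collagenase. It was at 59.6, 34.0 and 39.6 CPM in KO176, KO177 and KO209, against 37.1, 21.2 and 37.5 CPM in WT178, WT180 and WT207. KO176 was far above all others and WT180 far below, with KO177, KO209, WT178 and WT207 close together between them. Its log2 fold change of 0.48 (SE 0.28, edgeR adjusted p = 0.636) was 0.21 without KO176 and 0.24 without WT180.

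*S100a8* and *S100a9* encode the subunits of calprotectin, the calcium- and zinc-binding complex of the neutrophil cytosol. *S100a8* was at 1971, 1689 and 2162 CPM in KO176, KO177 and KO209, against 1824, 1334 and 1865 CPM in WT178, WT180 and WT207. *S100a9* was at 1155, 1047 and 1272 CPM in KO176, KO177 and KO209, against 1023, 793 and 1202 CPM in WT178, WT180 and WT207. Both genes overlapped between genotypes, with WT180 as the sample set apart. Their log2 fold changes were the lowest of the 10, 0.21 for *S100a8* (SE 0.17, edgeR adjusted p = 0.725) and 0.20 for *S100a9* (SE 0.17, edgeR adjusted p = 0.738), and without WT180 they were 0.07 for *S100a8* and 0.05 for *S100a9*. Without KO209 both were 0.13, and without WT207 *S100a9* was at 0.35.

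*Fcnb* encodes ficolin B, a lectin that starts the lectin pathway of complement. Its level was 112, 81.7 and 122 CPM in KO176, KO177 and KO209, against 75.1, 57.6 and 77.8 CPM in WT178, WT180 and WT207. The genotypes did not overlap, with means of 105 ± 20.9 CPM in the *Ythdc1*Δ/Δ samples, against 70.2 ± 10.96 CPM in the *Ythdc1*+/+ samples (SD, n = 3 each). The log2 fold change was 0.58 (SE 0.17), with an edgeR p of 0.00616 and an adjusted p of 0.302, the smallest of the 10 genes. *Fcna*, its paralog, was at 3.57, 4.81 and 4.77 CPM in KO176, KO177 and KO209, against 2.45, 2.22 and 4.996 CPM in WT178, WT180 and WT207, and overlapped.

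*Retnlg* encodes resistin-like gamma, a secreted protein of the resistin family found in mouse neutrophils. It was at 66.2, 36.5 and 43.1 CPM in KO176, KO177 and KO209, against 34.0, 25.6 and 44.5 CPM in WT178, WT180 and WT207. As with *Mmp8*, KO176 stood apart, and WT207 was above both KO177 and KO209. Its log2 fold change of 0.49 (SE 0.27, edgeR adjusted p = 0.617) was 0.20 without KO176 and 0.30 without WT180. Its paralogs *Retnla* and *Retnlb* were at 0.110 CPM or less in every sample.

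**Figure D2:**
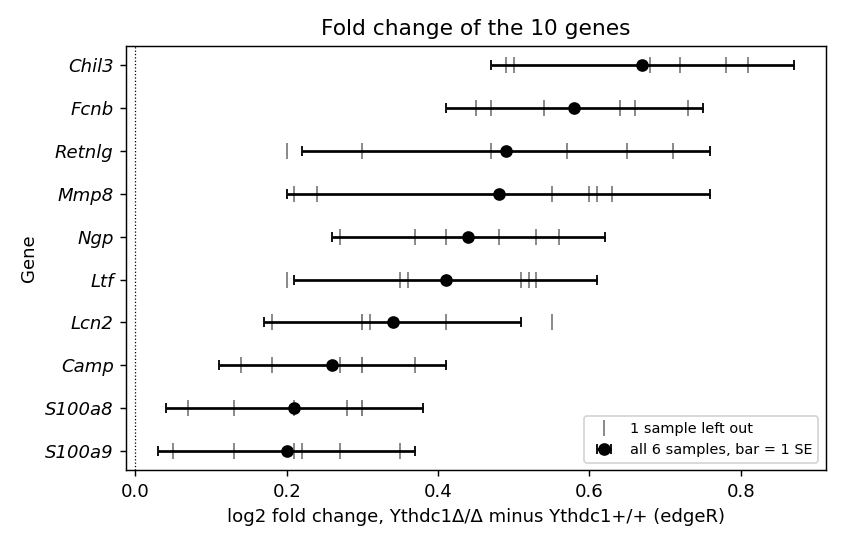
Log2 fold change of each gene, *Ythdc1*Δ/Δ minus *Ythdc1*+/+, from the edgeR fit (black point, bar of 1 SE either side), and the values with 1 sample left out (grey ticks). All points and ticks lie above 0, between 0.05 for *S100a9* and 0.81 for *Chil3*.

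By edgeR's quasi-likelihood test with Benjamini-Hochberg adjustment, 0 of the 10 genes were called, where 0.137% of all genes tested were. By DESeq2 the number was also 0, where 221 of the 18234 genes were called. With voomLmFit, which keeps the 12 libraries and blocks on the sample number, it was 1 (*Chil3*, adjusted p = 0.0432), where 159 of the 18234 were called. At an unadjusted edgeR p under 0.05 there were 3 genes, *Ngp*, *Chil3* and *Fcnb*, all higher in *Ythdc1*Δ/Δ HSCs, against 4.28% of all genes in that direction. These 3 genes were also the ones with every *Ythdc1*Δ/Δ sample above every *Ythdc1*+/+ sample, which 7.75% of all genes showed. The log2 fold change was above 0 for 10 of 10 genes, against 48.9% of all genes, and its median was 0.42, against -0.01 over all genes. The 10 genes are not independent of each other, since they follow the same samples.

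WT180 was the lowest of the 6 samples for all 10 genes. KO176 was the highest for 5 (*Camp*, *Ltf*, *Lcn2*, *Retnlg* and *Mmp8*) and KO209 for the other 5 (*Ngp*, *Chil3*, *S100a8*, *S100a9* and *Fcnb*). KO177 was the lowest *Ythdc1*Δ/Δ sample for 9 genes and lay above all *Ythdc1*+/+ samples for 3. Averaged over the 10 genes, log2 CPM centred on the mean of the 6 samples was 0.37 in KO176, -0.03 in KO177 and 0.29 in KO209, against -0.08 in WT178, -0.57 in WT180 and 0.02 in WT207. The lowest *Ythdc1*+/+ sample was therefore farther from its genotype than KO177 was from WT178 or WT207. Without WT180 the median log2 fold change of the 10 genes was 0.22 and the ratio of summed levels 1.15, and without KO176 they were 0.25 and 1.25. In each of these fits 2 of the genes had an unadjusted p under 0.05 and 0 were called.

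The 2 libraries of a sample number were close for most genes. Their levels differed by 1.001-fold to 1.35-fold over the 10 genes and 6 samples, the widest being *Mmp8* in WT180. The highest and lowest samples of a genotype differed by 1.18-fold (*Camp* in *Ythdc1*Δ/Δ) to 1.81-fold (*Retnlg* in *Ythdc1*Δ/Δ). For *Chil3*, 5 of the 6 *Ythdc1*Δ/Δ libraries lay above the highest *Ythdc1*+/+ library, and for *Fcnb* and *Ltf* it was 5 as well. For *S100a9* it was 1.

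The sample numbers fall in 2 ranges, a first with KO176, KO177, WT178 and WT180 and a second with KO209 and WT207, which the labels do not explain. In the first range *Ythdc1*Δ/Δ means were 1.16-fold (*S100a8*) to 1.73-fold (*Retnlg*) those of *Ythdc1*+/+. In the second range, with 1 sample of each genotype, KO209 was 1.68-fold WT207 for *Chil3*, 1.57-fold for *Fcnb* and 1.38-fold for *Ngp*. The values were close to even for *Lcn2* (1.04-fold), *S100a9* (1.06-fold), *Mmp8* (1.06-fold) and *Retnlg* (0.968-fold). *Retnlg* was thus the gene whose difference had the opposite sign in the second range.

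Ratios between genes of the same sample show which of them kept step. *S100a8* was 1.61 to 1.71 times *S100a9* in *Ythdc1*Δ/Δ samples and 1.55 to 1.78 times in *Ythdc1*+/+ samples, in CPM, so the calprotectin subunits stayed within 1.15-fold of 1 ratio over the 6 samples. *Ngp* to *Ltf* stayed within 1.20-fold, and *Chil3* to *Fcnb* within 1.19-fold. *Ngp* relative to *S100a8* was 1.59 to 1.68 in *Ythdc1*Δ/Δ samples, against 1.33 to 1.498 in *Ythdc1*+/+ samples. *Chil3* relative to *S100a8* was 0.297 to 0.364 in *Ythdc1*Δ/Δ samples, against 0.234 to 0.252 in *Ythdc1*+/+ samples. These were the 2 of 16 ratios computed in which the genotypes did not overlap. Both are relative to *S100a8*, and they were not tested. Among single genes, 1414 of the 18234 tested had every *Ythdc1*Δ/Δ sample above every *Ythdc1*+/+ sample, and 1567 had every one below.

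*Mpo* and the primary granule genes as a sum stood in another order of samples than the late genes. *Mpo* (myeloperoxidase) was at 10910, 5183 and 2222 CPM in KO176, KO177 and KO209, against 4775, 5388 and 2064 CPM in WT178, WT180 and WT207. It was lowest in WT207 and KO209, although the late genes were high in KO209. *Ngp* relative to *Mpo* was 0.303, 0.529 and 1.55 in KO176, KO177 and KO209, against 0.572, 0.333 and 1.21 in WT178, WT180 and WT207, a 5.12-fold range that did not follow genotype. KO209 and WT207, the samples of the second number range, were above all the others in this ratio. Summed over 10 primary granule genes, the level was 17210, 8738 and 4671 CPM in KO176, KO177 and KO209, against 7966, 9099 and 4578 CPM in WT178, WT180 and WT207. The late genes relative to this sum were 0.550, 0.903 and 2.11 in KO176, KO177 and KO209, against 0.994, 0.610 and 1.73 in WT178, WT180 and WT207. The highest sample was 1.59 to 2.81 times the lowest for the 10 late genes (median 2.004) and 1.27 to 6.30 times for the primary granule genes (median 2.90).

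**Figure D3:**
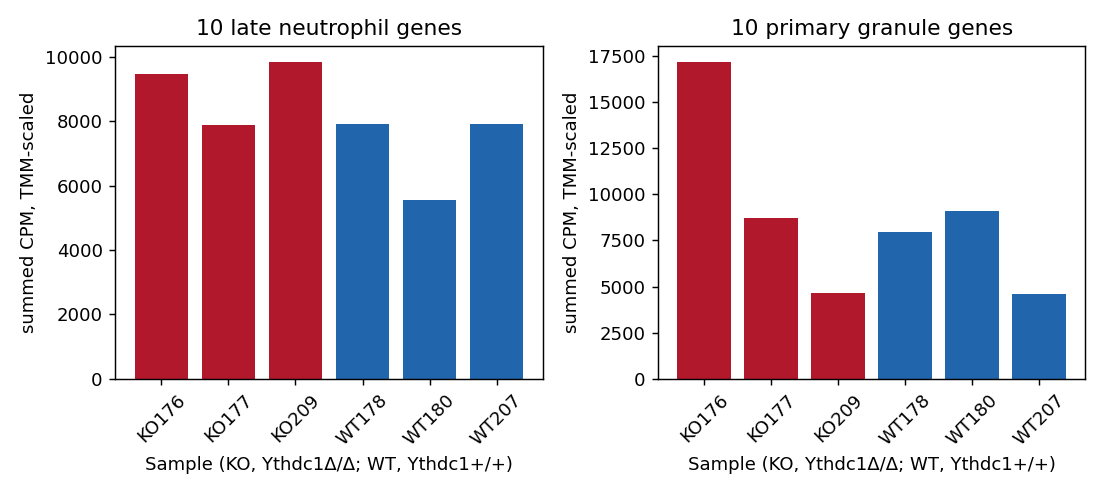
Summed CPM of the 10 late neutrophil genes (left panel) and of 10 primary granule genes (right panel) in each summed sample, *Ythdc1*Δ/Δ in red and *Ythdc1*+/+ in blue. The late genes are lowest in WT180 (5547 CPM), whereas the primary granule genes are highest in KO176 (17210 CPM) and low in both KO209 and WT207 (4671 and 4578 CPM).

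Of the 10 primary granule genes, 0 were called, 9 had a log2 fold change above 0 and the median was 0.43, which became -0.02 without KO176. *Ctsg* (cathepsin G) had a log2 fold change of 0.65 (SE 0.81), *Elane* (neutrophil elastase) of 0.71 (SE 0.51) and *Serpinb1a*, an inhibitor of these proteases, of 0.11 (SE 0.13). *Ms4a3*, a membrane protein of granulocyte and monocyte progenitors, had 0.95 (SE 0.61), *Prss57*, a serine protease, 0.45 (SE 0.27) and *Ctsc*, which activates granule proteases, 0.24 (SE 0.16). *Ctsc* was highest in KO176 and lowest in WT180, in the same order of samples as *Camp*. *Cd63*, a granule membrane protein that many other cells also make, was the 1 gene below 0. It was at 306, 334 and 365 CPM in KO176, KO177 and KO209, against 476, 401 and 500 CPM in WT178, WT180 and WT207, with no overlap. Its log2 fold change was -0.45 (SE 0.13), with an unadjusted edgeR p of 0.00632 and an adjusted p of 0.304.

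**Figure D4:**
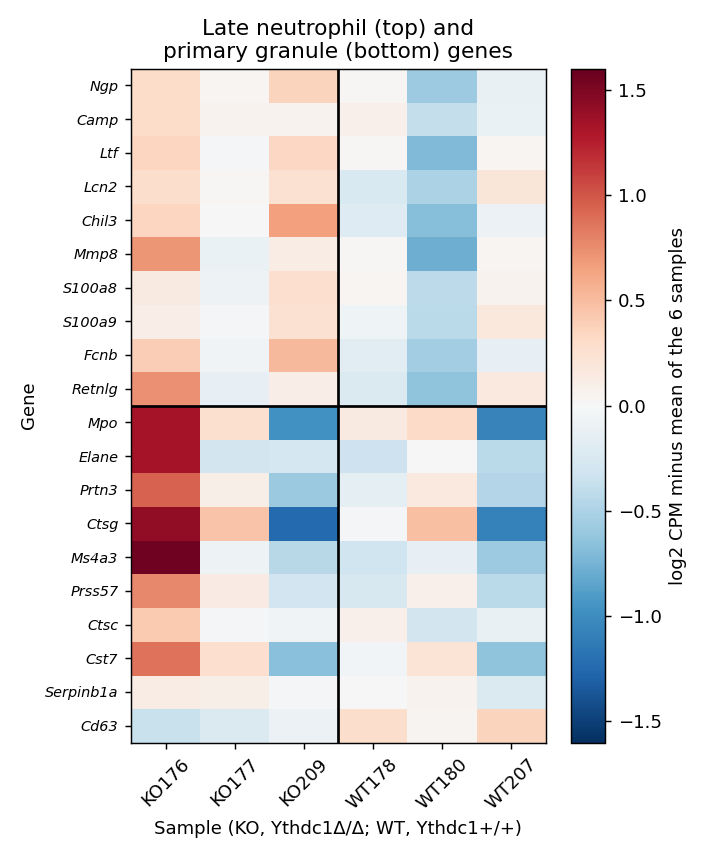
Log2 CPM of each gene minus its mean over the 6 samples, for the late neutrophil genes (above the line) and the primary granule genes (below), with *Ythdc1*Δ/Δ samples left of the vertical line. The column of WT180 is lowest for all 10 late genes (-0.38 to -0.78), and the column of KO176 is highest for 9 primary granule genes (up to 1.56 for *Ms4a3*).

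A wider list of 38 other genes of maturing neutrophils had 33 members above the filter on low counts, of which 29 had a log2 fold change above 0 and 4 below. Over all genes tested, 48.9% were above 0. The median of the list was 0.33 and 0 were called. An unadjusted edgeR p under 0.05 was found for 8, each of them higher with *Ythdc1* deleted, against 4.28% of all genes in that direction. In 8 genes every *Ythdc1*Δ/Δ sample lay above every *Ythdc1*+/+ sample, against 7.75% of all genes. The 5 not tested were *Stfa2*, *Stfa2l1*, *Stfa3*, *BC100530* and *Prok2*, at 0.308 CPM or less. *Lyz2* (lysozyme) was the most abundant, at 1446, 1371 and 1691 CPM in KO176, KO177 and KO209, against 1340, 1026 and 1315 CPM in WT178, WT180 and WT207, without overlap (log2 fold change 0.29, edgeR adjusted p = 0.588). *Anxa1* (annexin A1), *Cyba*, a subunit of the NADPH oxidase, and *Csf3r*, the receptor for G-CSF, had log2 fold changes of 0.11, 0.05 and 0.08, with overlap.

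The smallest p in that list was that of *Cybb*, the catalytic NADPH oxidase subunit. It was at 67.5, 37.0 and 63.7 CPM in KO176, KO177 and KO209, against 31.4, 29.5 and 37.3 CPM in WT178, WT180 and WT207, with KO177 just below WT207. A log2 fold change of 0.78 was fitted (SE 0.21), with an unadjusted edgeR p of 0.00548 and an adjusted p of 0.294. *Asprv1*, a retroviral-like aspartic protease, had a log2 fold change of 1.24 (SE 0.39) at levels of 0.813 to 1.11 CPM in *Ythdc1*Δ/Δ samples, against 0.228 to 0.705 CPM in *Ythdc1*+/+ samples. *Adam8*, a membrane metalloprotease, had 0.67 (SE 0.22), and *Itgb2*, the beta chain of the leukocyte integrins, 0.38 (SE 0.14). None of the 4 passed the test across all genes.

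Among regulators of the late genes, 9 of 9 were tested, 8 had a log2 fold change above 0 and 0 were called, with a median of 0.09. *Cebpe*, which encodes C/EBPε, was at 61.1, 42.3 and 46.3 CPM in KO176, KO177 and KO209, against 48.6, 29.4 and 38.0 CPM in WT178, WT180 and WT207. It was lowest in WT180 and highest in KO176, as several late genes were, and its log2 fold change was 0.37 (SE 0.20, edgeR adjusted p = 0.598). *Cebpa* had 0.59 (SE 0.37), *Cebpd* 0.48 (SE 0.25) and *Irf8*, which favours monocytes over neutrophils, 0.52 (SE 0.78). *Gfi1* had 0.09 (SE 0.14), *Csf3r* 0.08 (SE 0.13), *Spi1* (PU.1) 0.04 (SE 0.19), *Klf5* 0.04 (SE 0.21) and *Cebpb*, which serves emergency granulopoiesis, -0.16 (SE 0.17).

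Receptors for the products of these genes were tested in 6 of 6 cases, and 0 were called. *Slc22a17*, the lipocalin 2 receptor, was at 17.01, 22.6 and 28.8 CPM in KO176, KO177 and KO209, against 37.6, 30.5 and 31.5 CPM in WT178, WT180 and WT207. The genotypes did not overlap, and the *Ythdc1*Δ/Δ samples were the lower ones, with a log2 fold change of -0.54 (SE 0.18), an unadjusted edgeR p of 0.0147 and an adjusted p of 0.377. The calprotectin receptors *Tlr4* (-0.03, SE 0.21) and *Ager* (0.14, SE 0.28), the calprotectin-binding *Bsg* (0.21, SE 0.15), the lactoferrin receptor *Lrp1* (0.65, SE 0.32) and *Fpr2*, to which cathelicidin peptides bind (0.23, SE 0.21), overlapped. Of the chitinase-like paralogs of *Chil3*, *Chil1* was at 30.2, 27.7 and 38.5 CPM in KO176, KO177 and KO209, against 24.1, 16.7 and 25.9 CPM in WT178, WT180 and WT207, without overlap (log2 fold change 0.53, edgeR adjusted p = 0.392). *Chil5* was at 1.02 to 2.26 CPM over the 6 samples and *Chil6* at 0.182 CPM or less.

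The 5 genes outside the list whose profile over the 6 samples came nearest to the mean profile of the 10 were *Mcemp1*, *Atg9b*, *Lrg1*, *Tgfbi* and *E2f2*. Likeness was the root mean square difference of centred log2 CPM, among 9121 genes at a mean of 10 CPM or more. The value was 0.073 for *Mcemp1*, 0.10 for *Atg9b*, 0.10 for *Lrg1*, 0.11 for *Tgfbi* and 0.11 for *E2f2*, against a median of 0.326 over all genes compared. The 10 genes themselves ran between 0.072 for *Ltf* and 0.193 for *Retnlg*, and 121 other genes were as near as *Retnlg* or nearer. *Mcemp1*, a mast cell and myeloid membrane protein, was at 19.7, 14.2 and 19.5 CPM in KO176, KO177 and KO209, against 13.1, 9.98 and 16.1 CPM in WT178, WT180 and WT207.

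The libraries were labelled as HSCs, and markers of neutrophils and of other cells were read beside the late genes. Of 4 neutrophil surface markers, 4 were tested and 0 were called. Their sum was 173 to 228 CPM over the *Ythdc1*Δ/Δ samples, against 168 to 192 CPM over the *Ythdc1*+/+ samples, most of it *Csf3r*. *Ly6g*, part of the Gr1 epitope used in the sort, was at 11.6, 8.59 and 11.5 CPM in KO176, KO177 and KO209, against 8.62, 6.16 and 9.52 CPM in WT178, WT180 and WT207, lowest in the same sample as the late genes. *Cxcr2* was at 5.91 to 8.07 CPM over the 6 samples. *Itgam* (CD11b) was at 1.73 to 3.09 CPM, but 68.7% of its exonic bases overlap another annotated gene, and reads there are not counted. All 3 were far below *Ngp* and *S100a8* in CPM in both genotypes, and their part in the late genes' values was not tested.

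Monocyte and macrophage markers, 10 of 10 tested and 0 called, summed to 248 to 1298 CPM over the *Ythdc1*Δ/Δ samples, against 218 to 662 CPM over the *Ythdc1*+/+ samples. KO176 was the highest, as it was for the primary granule genes. A log2 fold change above 0 was found for 9 of the 10 markers, and the median was 0.71. At an unadjusted edgeR p under 0.05 there were 3, all higher with *Ythdc1* deleted, against 4.28% of all genes in that direction. The 1 marker below 0 was *Cd5l* (-1.23), which was near 0 CPM (0.213 to 1.67 CPM). Eosinophil, basophil and mast cell markers summed to 448 to 633 CPM over the *Ythdc1*Δ/Δ samples, against 331 to 543 CPM over the *Ythdc1*+/+ samples (5 tested, 0 called). B lineage markers summed to 111 to 149 CPM over the *Ythdc1*Δ/Δ samples, against 117 to 129 CPM over the *Ythdc1*+/+ samples (8 tested, 0 called), with *Pax5* and *Ms4a1* under 1 CPM. Most of that sum was *Cd79b* (log2 fold change -0.06). Of the 8 markers, 7 had a log2 fold change above 0, and the median was 0.5. At an unadjusted edgeR p under 0.05 there were 4, each higher with *Ythdc1* deleted, against 4.28% of all genes in that direction. *Cd79a* had the smallest p (log2 fold change 1.0, edgeR adjusted p = 0.0622). T and NK markers were near 0, with sums of 5.61 to 5.76 CPM with *Ythdc1* deleted, against 5.15 to 6.73 CPM in *Ythdc1*+/+ (4 of 6 tested, 0 called). Of the stromal and endothelial markers, 5 of 6 were tested and 2 were called higher, where 16 of all 18234 genes tested were. These 2 were *Lepr* and *Adipoq*, both under 4 CPM. *Lepr* averaged 6.11-fold, *Adipoq* 9.10-fold and *Cxcl12*, which was not called, 4.51-fold the *Ythdc1*+/+ level. The sum of the list, most of it *Pecam1*, was 102 to 119 CPM over the *Ythdc1*Δ/Δ samples, against 78.3 to 95.2 CPM over the *Ythdc1*+/+ samples. Erythroid markers summed to 728 to 1383 CPM over the *Ythdc1*Δ/Δ samples, against 1442 to 1667 CPM over the *Ythdc1*+/+ samples, nearly all of it *Car2* (7 tested, 0 called), and megakaryocyte markers to 165 to 285 CPM with *Ythdc1* deleted, against 270 to 402 CPM in *Ythdc1*+/+ (4 tested, 0 called). HSC markers summed to 779 to 886 CPM over the *Ythdc1*Δ/Δ samples, against 961 to 1128 CPM over the *Ythdc1*+/+ samples (8 tested, 0 called, 7 with a log2 fold change below 0). Their part in the values of the late genes was not tested.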

How the data were processed

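Polyadenylated RNA of sorted mouse HSCs was sequenced in 12 libraries, 6 per genotype. The authors deposited raw counts, with a read pair counted once per gene by featureCounts 2.0.1 on GENCODE genes of mm10 without use of strand, per the file headers. The paper's methods name Hisat2 for alignment and a NEBNext RNA kit, while the labels name SMARTer cDNA and a NEBNext DNA kit; FPKM values from Stringtie were not used here. The summed exon length that the authors deposited beside the counts gave the TPM values. Of 55335 genes, 55154 had a symbol. Library totals were 22481622 to 24118972 counts in *Ythdc1*Δ/Δ libraries and 20809936 to 24563170 in *Ythdc1*+/+ libraries.

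The counts of the 2 libraries of each sample number were summed. Genes were kept by filterByExpr (minimum count 10, minimum total 15), scaled by TMM and tested with edgeR 4.0.16 in R 4.3.3 (robust quasi-likelihood fit on genotype, 3 samples against 3), with Benjamini-Hochberg adjustment over 18234 genes and a threshold of 0.05. Log2 fold changes are *Ythdc1*Δ/Δ minus *Ythdc1*+/+. The fit was tested on simulated data. Alternatives used DESeq2 1.42.0, limma 3.58.1 (voomLmFit), other scalings and filters, and each sample left out in turn. Figures were drawn with matplotlib 3.10.9. The rule for names took all 10 late genes, all tested regulators and receptors, 4 genes by level and 4 by p of the wider late and primary granule lists, paralogs by level, and the 5 nearest profiles; markers are given by list, with those at or near 0 and the called ones. *Ly6g*, *Cxcr2*, *Itgam*, *Cd79a*, *Cd79b*, *Car2*, *Pecam1* and *Cxcl12* are named beside their sums. The 10 genes and all lists were chosen with earlier results of these data known.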

Additional observations from a re-analysis of the deposited data

How the results depend on the processing

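The 10 late neutrophil genes were refitted under 18 alternatives. All of these drew on the same 6 samples, so the 180 values are not independent of each other. All 180 log2 fold changes of the 10 genes were above 0. Their median was 0.22 to 0.54 with 1 sample left out and 0.38 to 0.49 under the other alternatives, and the ratio of their summed levels was 1.15 to 1.36 with 1 sample left out and 1.23 to 1.29 under other scalings and filters or without both KO209 and WT207. Alternatives of the model gave no value for this ratio, which comes from no model. The number of late genes called was 0 in each alternative but 3. With the 12 libraries as separate samples it was 2 (*Chil3*, adjusted p = 0.0209, and *Fcnb*, 0.0213), with a replicate block for the library digit also 2 (*Chil3*, 0.029, and *Fcnb*, 0.0291), and with voomLmFit 1; the first and second of these count libraries of 1 sample number as independent. The smallest adjusted p of the late genes was 0.0661 by DESeq2 and 0.0687 when the 2 number ranges entered the fit as a term.

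Of the other late neutrophil genes, 6 were called with 12 separate libraries, 5 with the replicate block and 1 by DESeq2, beside 751 of 15551, 717 of 15551 and 221 of 18234 genes in all. Of the primary granule genes 1 was called with 12 libraries, 1 with the block and 1 with voomLmFit. In the edgeR fit on summed samples, only *Cd63* of that list had an unadjusted p under 0.05, and it was lower in *Ythdc1*Δ/Δ HSCs. The median of the primary granule genes was -0.02 without KO176, with a range of -0.02 to 0.71 over the samples left out. Over all genes, the number called was 1 without WT178, 81 without KO209 and 159 with voomLmFit. Total count scaling, chosen after seeing the data, moved the median of all genes to -0.05 and that of the late genes to 0.38. No paired analysis was possible because the genotypes share no sample number. The causes of these changes were not tested, and 3 samples per genotype limit what could be called.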
